A study of Mus musculus with 26 samples.

Results

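The 10 genes described here encode 9 receptor tyrosine kinases and 1 ligand. They are Axl and Tyro3 with their ligand Gas6, the receptors Met and Mst1r, the PDGF receptors Pdgfra and Pdgfrb, and the FGF receptors Fgfr1, Fgfr2 and Fgfr3. Each was followed through its brightest single-gene probe set, the probe set with the highest mean, among 18193 genes with such a probe set. All 10 were measured, and all 10 passed the filter on low values that left 12641 genes for testing. Total RNA came from 26 mouse skin lines grown in serum and harvested in log phase, with 1 Affymetrix array per line. The values are log2 RMA values, for which 1 unit is a doubling of the normalised signal, and the median of all probe sets on an array lay between 5.04 and 5.15. Levels of different genes are not set against each other, because each probe set has its own brightness.

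The lines form groups by their labels. The immortalised keratinocyte group holds C5N and NK, of which NK came from a p53 null mouse. P6 came from a benign papilloma. The 12 non-spindle squamous carcinoma lines are PDV, PDVC57, E4, B9, B9ras, B9rassmad, SN161, MSCP1, MSCP5, MSC11B, MSC12 and MSC7A. Of these, SN161 arose in a Spretus/NIH cross and the 5 MSC lines in Spretus/CBA crosses. The 7 carcinoma lines with spindle morphology are D3, D3DP, A5, H11, MSN2, CarB and CarC. Another 4 lines entered no comparison: the spindle state of 2945CA and MSCb1 is not given, and the cell type label and flags of B9Smad and of another keratinocyte line, here called the third, conflict. MSCb1, like MSCP5, came from a Spretus cross. A group is thus a set of different lines, some with related names, and p-values measure the spread between lines. Strain, passage and the origin of most lines are not stated in the labels.

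Receptor tyrosine kinases span the plasma membrane, bind a protein ligand outside the cell and phosphorylate themselves and adaptor proteins inside it, which feeds the Ras, PI3-kinase and STAT pathways. In skin, keratinocytes use Met for migration in wound repair and an epithelial splice form of Fgfr2 that receives Fgf7 and Fgf10 from dermal fibroblasts, while the PDGF receptors are typical of dermal fibroblasts and pericytes. Axl is known for its presence in invasive and drug-tolerant carcinoma cells. Arrays of this kind measure transcripts and report nothing about receptor protein or phosphorylation.

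The promoters of Axl, Fgfr2 and Fgfr3 are shown for the gene called higher in both carcinoma groups against keratinocyte lines and the FGF receptors called lower in at least 1 of them. Tyro3 was also called, in spindle lines, near the threshold, and its window is described without its letters. The RefSeq table for GRCm38.p6 held 8 of the 10 genes. Each window runs 5′ to 3′ on the gene's own strand over 300 bases around the start site. Capitals mark matches on either strand to the GC box GGGCGG and the AP-2 motif GCCNNNGGC. The AP-1 motif TGANTCA and the core promoter motif of TATA-binding protein, which reads TATAAA, were also searched for. Neither had a match in the windows printed here. Axl lies at chr7:25788684-25788983, minus strand, Fgfr2 at chr7:130266759-130267058, minus strand, and the first listed start of Fgfr3 at chr5:33721474-33721773, plus strand.
Axl: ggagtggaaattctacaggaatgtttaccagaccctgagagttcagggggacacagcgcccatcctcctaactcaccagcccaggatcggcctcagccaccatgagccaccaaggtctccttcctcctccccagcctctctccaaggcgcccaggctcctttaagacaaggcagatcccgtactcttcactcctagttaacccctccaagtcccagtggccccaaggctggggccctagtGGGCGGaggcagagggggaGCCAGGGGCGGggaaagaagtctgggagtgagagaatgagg
Fgfr2: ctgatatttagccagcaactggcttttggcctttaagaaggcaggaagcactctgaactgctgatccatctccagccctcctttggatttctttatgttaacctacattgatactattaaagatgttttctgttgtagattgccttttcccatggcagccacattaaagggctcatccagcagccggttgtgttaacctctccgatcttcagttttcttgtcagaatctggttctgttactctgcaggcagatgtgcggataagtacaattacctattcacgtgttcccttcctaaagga
Fgfr3: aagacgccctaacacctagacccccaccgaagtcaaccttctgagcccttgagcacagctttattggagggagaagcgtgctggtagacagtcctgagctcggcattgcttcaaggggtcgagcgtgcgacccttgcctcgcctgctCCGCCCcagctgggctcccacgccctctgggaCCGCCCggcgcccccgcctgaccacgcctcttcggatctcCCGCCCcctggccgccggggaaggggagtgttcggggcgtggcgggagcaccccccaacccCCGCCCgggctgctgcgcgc
The Axl window held 2 GC-box matches and 1 AP-2 match that overlaps the second of them, with 6 CpG dinucleotides. The Fgfr3 window held 4 GC-box matches and 26 CpG dinucleotides. In the Fgfr2 window none of the 4 motifs was present, and it had 4 CpG dinucleotides. The Tyro3 window at chr2:119799264-119799563, plus strand, held 6 GC-box matches, none of the other 3 motifs and 31 CpG dinucleotides. Among all 32851 promoters of the same length, 35.7% held a GC box, 16.6% an AP-2 match, 7.8% an AP-1 match and 13.6% a TATA box, and the median CpG count was 7. A match is a string of letters and not evidence of binding.

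The cells were first checked against marker genes. In the keratinocyte lines and P6 all 8 epithelial markers, keratins and adhesion genes among them, lay above the array median, and the 7 spindle lines had 1 to 4 of them above it. The non-spindle group was mixed, with 1 to 8: MSC12 and MSC7A had 1 and MSC11B had 5, and these 3 lines also had Cdh1 (E-cadherin) between 3.25 and 3.54, against 9.13 to 11.78 in the other 9. Among those 9, E4 also had 5 epithelial markers above the median, with Cdh1 at 10.58. Of 8 fibroblast markers, 3 to 7 lay above the median in spindle lines, 1 to 7 in non-spindle lines and 3 to 4 in keratinocyte lines. Endothelial markers reached the median for 0 or 1 of 5 and leukocyte markers for 1 to 3 of 5. The mean log2 value of the epithelial list was 11.50 to 11.60 in keratinocyte lines, 4.35 to 11.84 in non-spindle and 4.59 to 5.50 in spindle lines, and that of the fibroblast list 4.71 to 5.74, 4.58 to 10.57 and 5.78 to 10.42. The part of these markers in the receptor differences was not tested. In bulk RNA, fewer cells with a transcript and less of it per cell cannot be told apart.

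**Figure D1:**
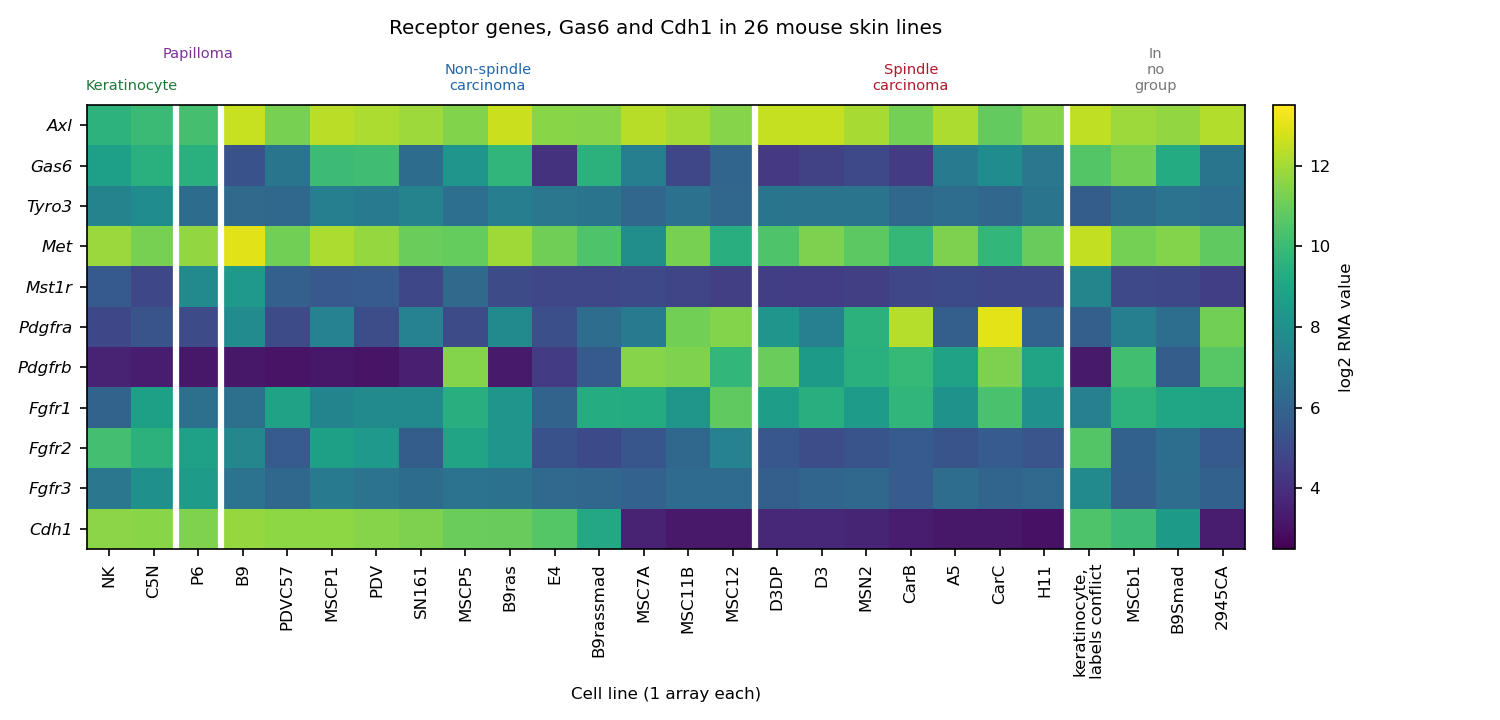
Heat map of log2 RMA values (colour scale) of the 10 genes and Cdh1 (rows) in 26 lines (columns, 1 array each), ordered by group and then by Cdh1. Pdgfrb ranges from 3.08 to 11.52 across lines, and Axl is lowest in NK, C5N and P6, between 9.60 and 10.26.

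The group differences were counted first. Between non-spindle and keratinocyte lines 2 of the 10 genes passed, Axl higher and Fgfr3 lower, where 2.02% of all tested genes passed, 0.886% higher and 1.13% lower. Between spindle and keratinocyte lines 4 passed, Axl higher and Tyro3, Fgfr2 and Fgfr3 lower, where 5.35% did, 2.40% higher and 2.95% lower. Groups did not overlap for 2 genes in the former (Axl and Fgfr2), against 5.66% of all tested genes, and for 7 in the latter (Axl, Gas6, Tyro3, Pdgfra, Pdgfrb, Fgfr2 and Fgfr3), against 22.9%. None of the 10 genes passed in the comparison of spindle with non-spindle lines, in which 0.0633% of all tested genes (8 of 12641) did. At an unadjusted limma p under 0.05 stood 3 of the 10, namely Pdgfrb, Fgfr2 and Fgfr3, where 20.7% of all tested genes stood, so the share of these genes was near the background. The exact permutation test, 2-sided and unadjusted over the 10 genes and 4 comparisons, gave 0.0254 for Pdgfrb, 0.0234 for Fgfr2 and 0.0159 for Fgfr3 there. The median log2 difference of the 10 genes was -0.15 and -0.71, beside 0.02 and 0.04 over all tested genes. For spindle against non-spindle lines the medians were -0.28 and 0.04. The lowest p that the exact permutation test can give is 0.0110 with 2 keratinocyte and 12 non-spindle lines (91 divisions). With 2 and 7 lines (36 divisions) it is 0.0278. Placing the conflicting lines by cell type label left Fgfr2 and Fgfr3 as the genes called in both comparisons.

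**Figure D2:**
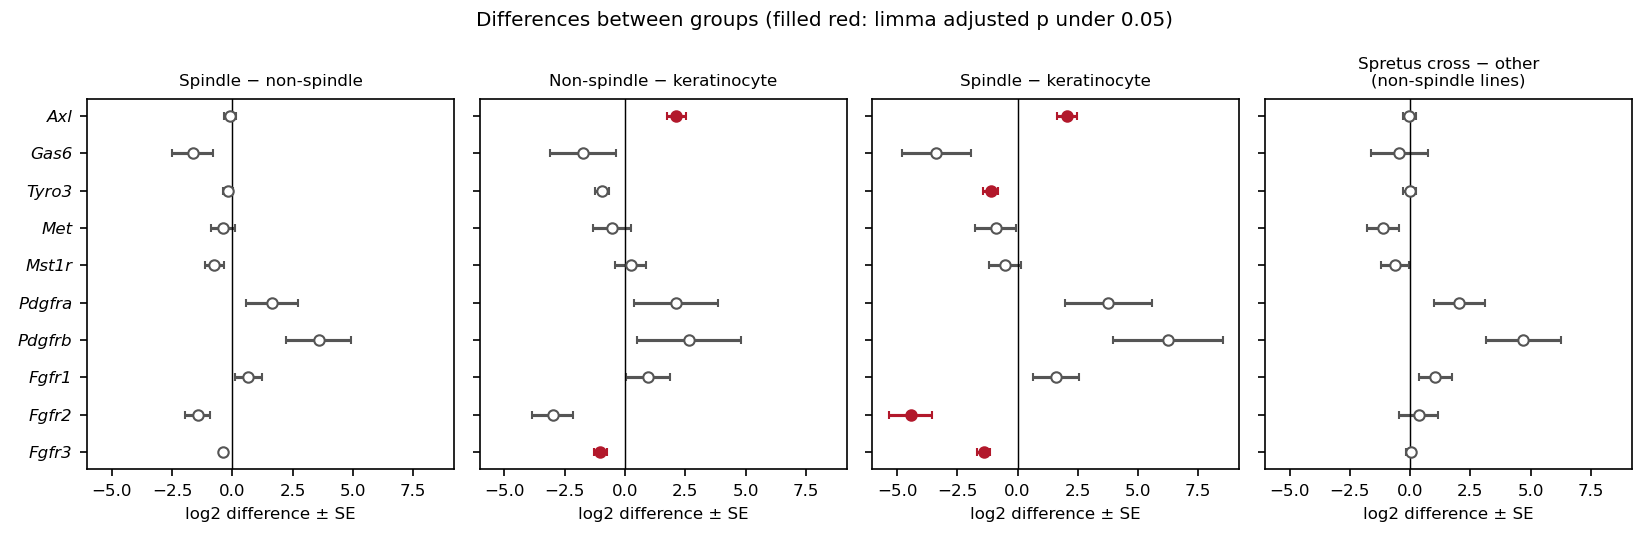
Log2 difference ± SE (x axis) of each gene (rows) in the 4 comparisons (panels), filled red where the limma adjusted p is under 0.05. Axl is filled in both comparisons with keratinocyte lines (2.13 and 2.04), and no gene is filled between spindle and non-spindle lines or by Spretus cross.

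Axl was higher in carcinoma lines than in keratinocyte lines. Its log2 value was 9.60 in NK and 9.99 in C5N. The non-spindle carcinoma lines ran from 11.26 to 12.60 with a median of 11.94, and the spindle lines from 10.87 to 12.54 with a median of 12.07. No carcinoma line of either group reached down to the keratinocyte values. P6 stood at 10.26, between C5N and the lowest carcinoma line, CarC. The non-spindle mean of 11.93 ± 0.47 (SD, n = 12) exceeded the keratinocyte mean of 9.80 ± 0.27 (SD, n = 2) by a log2 difference of 2.13 ± 0.40 (SE), or 4.38-fold (limma adjusted p = 0.00528). The spindle mean of 11.84 ± 0.65 (SD, n = 7) exceeded it by 2.04 ± 0.41, or 4.13-fold (limma adjusted p = 0.00684). Both comparisons share the same keratinocyte lines. Between spindle and non-spindle lines the Axl difference was -0.09 ± 0.25 (limma adjusted p = 0.873), smaller than the spread within either group.

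The Axl calls rest on 2 keratinocyte lines. Without NK the log2 difference from non-spindle lines was 1.94, at a limma adjusted p of 0.104, and that from spindle lines was 1.85, at 0.109. The third keratinocyte line, left out because its flag and label disagree, had an Axl value of 12.46, within the carcinoma range. With the conflicting lines placed by their cell type label, the differences were 1.24 (adjusted p = 0.199) and 1.14 (adjusted p = 0.145). A second Axl probe set stayed below the array median in all 26 lines, with values from 2.90 to 3.66, and was left out of these values. Its own differences from keratinocyte lines were -0.07 for non-spindle and -0.02 for spindle lines (Pearson r = 0.18 with the first). With the mean of both probe sets the differences were 1.03 (limma adjusted p = 0.0155) and 1.01 (0.0158). Because the second probe set hardly varied, that mean mostly repeats the first and is no separate check.

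Tyro3, the other Gas6-binding receptor in the set, was lower in spindle than in keratinocyte lines, where Axl was higher. The keratinocyte lines had Tyro3 values of 7.43 (NK) and 7.86 (C5N). Spindle lines lay between 6.12 and 6.76, wholly below them, and non-spindle lines between 6.13 and 7.43. Tyro3 was 2.18-fold lower in spindle than in keratinocyte lines (log2 difference -1.12 ± 0.32 SE, limma adjusted p = 0.0434). That call sits near the threshold and was kept in 1 of 9 fits that each left out 1 line, with adjusted p up to 0.312. The differences of non-spindle from keratinocyte lines (-0.95 ± 0.30, limma adjusted p = 0.132) and of spindle from non-spindle lines (-0.18 ± 0.19, 0.622) did not pass. Another Tyro3 probe set, above the array median in 20 lines (Pearson r = 0.85 with the first), had larger differences. They were -1.96 for spindle minus keratinocyte, -1.23 for non-spindle minus keratinocyte and -0.73 for spindle minus non-spindle lines. The third keratinocyte line had the lowest Tyro3 value of all 26 lines, 5.74. Mertk, the remaining member of this receptor family, lay above the array median in 1 line, with values from 3.71 to 5.34.

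Gas6, the vitamin K-dependent ligand of these receptors, varied widely. NK had a Gas6 value of 8.72, C5N 9.47 and P6 9.48. Spindle lines ran from 4.32 to 7.85 with a median of 4.91, all below the keratinocyte lines. Non-spindle lines ran from 4.10 in E4 to 10.14 in PDV, overlapping both other groups. High values among them came from PDV, MSCP1 (10.04), B9ras (9.75) and B9rassmad (9.56). None of the Gas6 differences passed the test: -3.37 ± 1.43 between spindle and keratinocyte lines (limma adjusted p = 0.184), -1.73 ± 1.37 between non-spindle and keratinocyte lines (0.723), and -1.64 ± 0.85 between spindle and non-spindle lines (0.278). Pros1, protein S, a second ligand of the family, was above the array median in all 7 spindle lines (5.67 to 8.52) and in 5 of 12 non-spindle lines (4.45 to 8.21), with a log2 difference of 1.32 ± 0.58 (limma adjusted p = 0.208). B9, with a Gas6 value of 5.27, lay far below the lines of related name, B9ras and B9rassmad, with 1 array each and so no test.

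**Figure D3:**
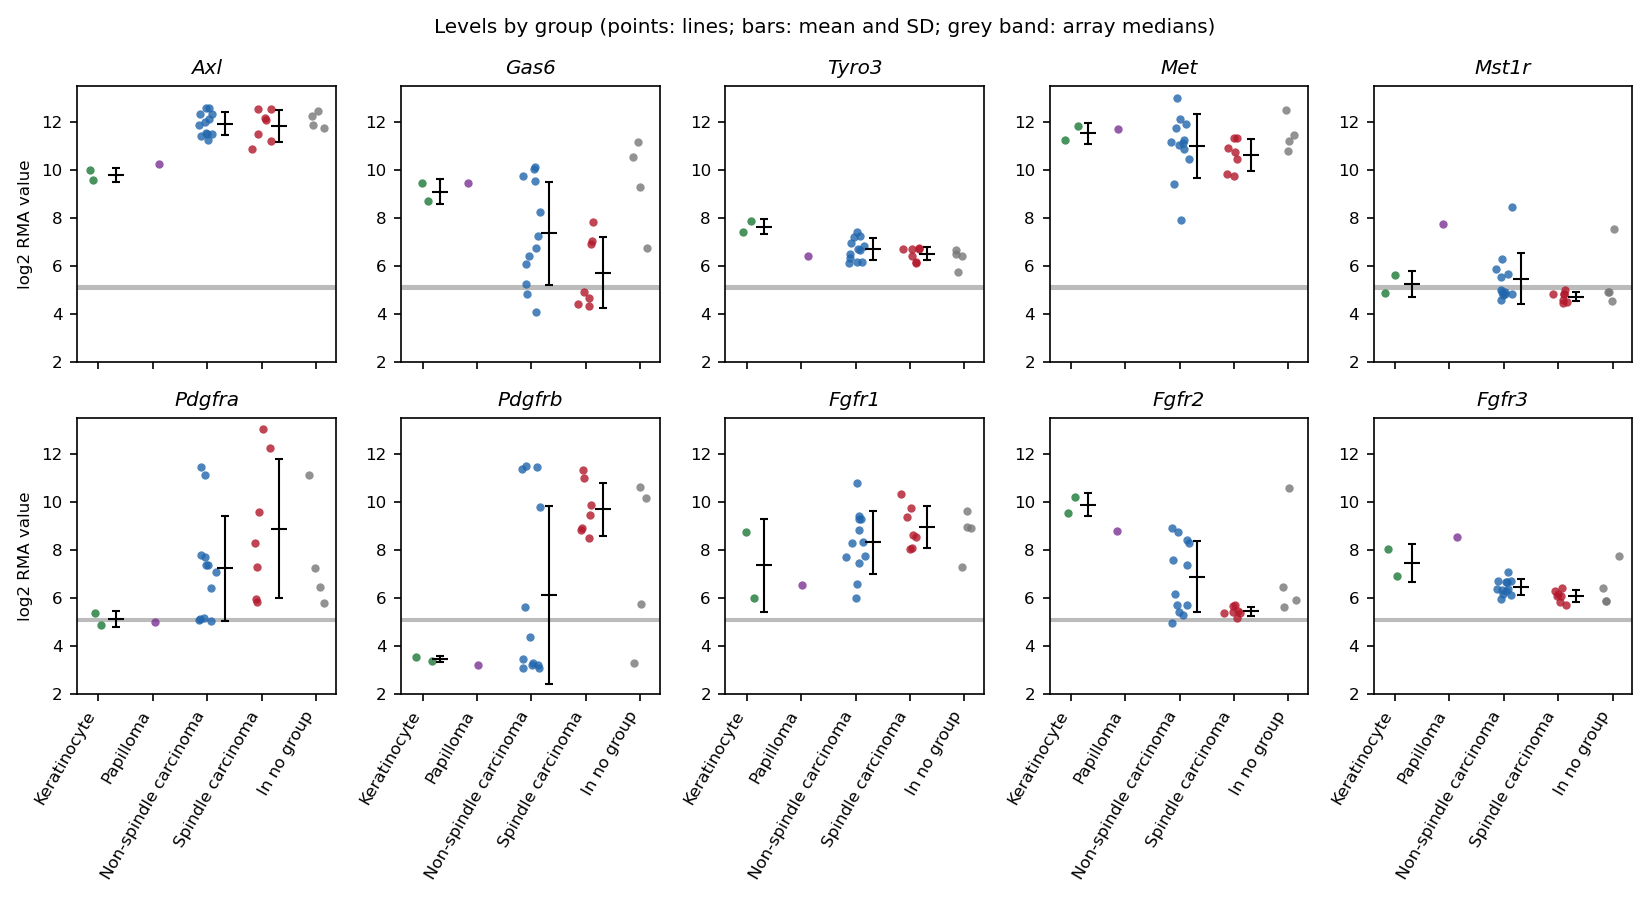
Log2 RMA value (y axis) of each gene in every line (points) by group (x axis), with the mean and SD of the keratinocyte (n = 2), non-spindle (n = 12) and spindle (n = 7) groups. The grey band is the range of array medians, 5.04 to 5.15; all Axl points lie far above it, and Mst1r lies above its array median in 8 of 26 lines.

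Met, the receptor of hepatocyte growth factor, was above the array median in every line. The keratinocyte lines had Met values of 11.23 (C5N) and 11.84 (NK), and P6 had 11.72. Non-spindle lines ran from 7.93 in MSC7A to 13.01 in B9 with a median of 11.13. Spindle lines ran from 9.77 in CarC to 11.35 in D3 with a median of 10.73. The 3 groups overlapped, and the lowest values were in carcinoma lines. The limma differences were -0.38 ± 0.50 between spindle and non-spindle (adjusted p = 0.703), -0.53 ± 0.80 between non-spindle and keratinocyte (0.878) and -0.91 ± 0.84 between spindle and keratinocyte lines (0.582). The lowest 4 of all 26 Met values belonged to MSC7A, MSC12 (9.42), CarC and CarB (9.82), all lines with Cdh1 between 3.20 and 3.54.

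Hgf, the ligand of Met, lay above the array median in 3 lines only, namely CarB (8.47), CarC (8.24) and MSC12 (6.78). The median Hgf value over all 26 lines was 4.40. These 3 lines with Hgf are also 3 of the 4 with the lowest Met. The observation covers 3 lines chosen by their Hgf value and carries no test.

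Mst1r, also called Ron, is the receptor of macrophage-stimulating protein and the nearest relative of Met. It was above the array median in 8 of 26 lines. B9 had the highest Mst1r value at 8.47, followed by P6 at 7.76, the third keratinocyte line at 7.53, MSCP5 at 6.30 and PDVC57 at 5.87. C5N stood at 4.87 and NK at 5.63. All 7 spindle lines lay between 4.48 and 4.99, below their array medians. No Mst1r comparison passed: the limma difference between spindle and non-spindle lines was -0.75 ± 0.39 (adjusted p = 0.284), that between non-spindle and keratinocyte lines 0.23 ± 0.63 (0.943), and that between spindle and keratinocyte lines -0.52 ± 0.66 (0.706). The 2 relatives of B9 by name that were grouped with it, B9ras (5.02) and B9rassmad (4.83), did not share its high Mst1r. Mst1, which encodes the ligand, was highest in SN161 at 8.35, the third keratinocyte line at 7.75 and C5N at 7.24.

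Pdgfrb, the receptor of PDGF-B dimers, ranged from 3.08 to 11.52, and no line lay between 5.76 and 8.49. It was 3.38 in C5N, 3.56 in NK and 3.21 in P6. All 7 spindle lines were high: D3 8.49, A5 8.84, H11 8.91, MSN2 9.48, CarB 9.88 and CarC 11.34, with D3DP between the last pair. Non-spindle lines included both states. MSC7A (11.52), MSCP5 (11.48), MSC11B (11.37) and MSC12 (9.78) were as high as spindle lines, and the other 8 ranged from 3.08 in PDV and PDVC57 to 5.63 in B9rassmad. The spindle mean was 9.71 ± 1.10 (SD, n = 7), the non-spindle mean 6.13 ± 3.72 (SD, n = 12) and the keratinocyte mean 3.47 ± 0.13 (SD, n = 2). The log2 difference of 3.58 ± 1.34 between spindle and non-spindle lines did not pass (limma adjusted p = 0.152). The exact permutation test ran over 50388 divisions of these lines.

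With MSC12, MSC11B and MSC7A left out, lines known from earlier results on these data to be low in epithelial transcripts, the Pdgfrb difference was 5.17 ± 1.00 (limma adjusted p = 0.00355). It was then the only gene of the 10 that passed, among 1954 genes or 15.5%. Because those lines were picked on their measured profiles, that value is a description and not a test of the labelled groups.

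Against keratinocyte lines, Pdgfrb in spindle lines was higher by 6.24 ± 2.27 log2 units without overlap, and this did not pass when the spread was pooled over the 3 groups (limma adjusted p = 0.116). The non-spindle spread enters that error. With the spindle and keratinocyte lines alone in the fit, the same difference had a standard error of 0.73 and an adjusted p of 0.000844. The difference between non-spindle and keratinocyte lines was 2.66 ± 2.16 (limma adjusted p = 0.734). A second Pdgfrb probe set followed the first over the 26 lines (Pearson r = 0.95) with smaller differences, 1.12 between spindle and non-spindle lines.

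Pdgfra, the receptor for PDGF-A, -B and -C dimers, did not follow Pdgfrb in every line. The keratinocyte values were 4.88 (NK) and 5.37 (C5N), near the array median. CarC (13.04), CarB (12.27), MSC12 (11.47), MSC11B (11.14) and 2945CA (11.14) had the highest values. Among spindle lines A5 (5.85) and H11 (5.95) were low although their Pdgfrb was high, and among non-spindle lines MSCP5 had Pdgfra at 5.07 with Pdgfrb at 11.48. Conversely B9 (7.81) and B9ras (7.70) had Pdgfra well above the median with Pdgfrb at 3.20 and 3.31. Spindle lines had a Pdgfra median of 8.28 (5.85 to 13.04) and non-spindle lines 7.23 (5.06 to 11.47), which overlap. The differences were 1.66 ± 1.08 between spindle and non-spindle (limma adjusted p = 0.393), 2.11 ± 1.73 between non-spindle and keratinocyte (0.739) and 3.77 ± 1.82 between spindle and keratinocyte lines (0.245, without overlap). A5 and H11 had nearly the same array profile (Pearson r over genes 0.9876), the highest of any pair of lines.

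**Figure D4:**
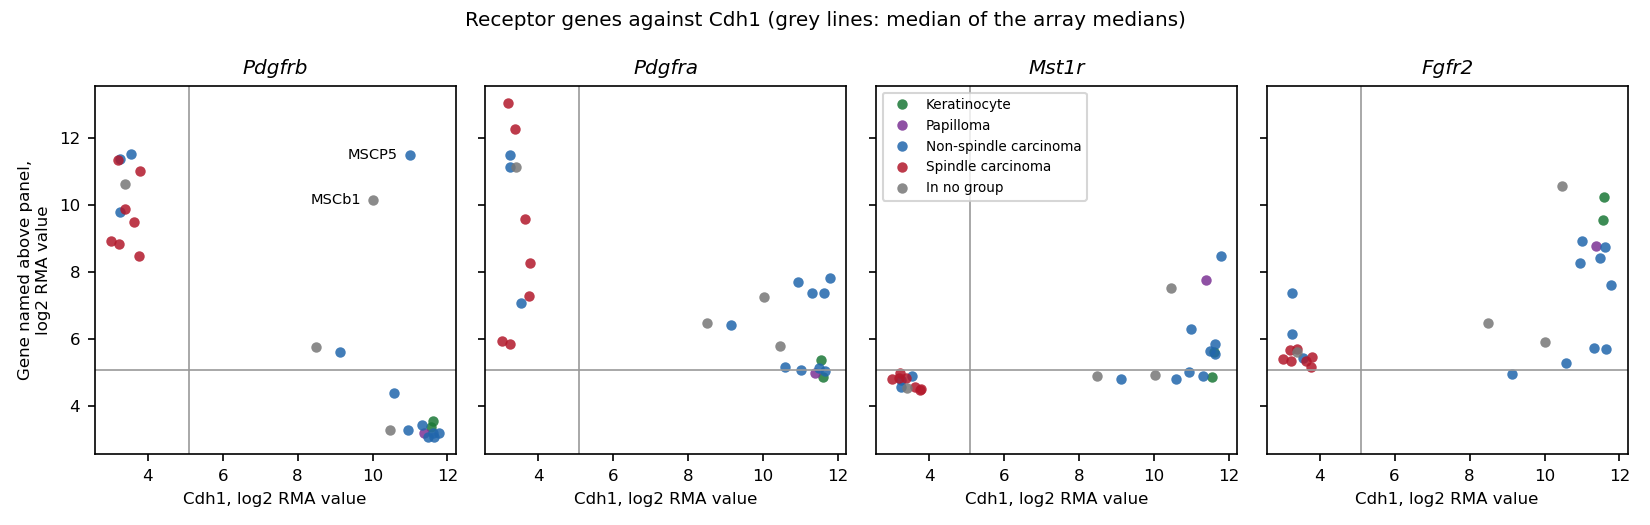
Log2 RMA value of Pdgfrb, Pdgfra, Mst1r and Fgfr2 (y axis) against that of Cdh1 (x axis), with 1 point per line coloured by group and grey lines at the median of the array medians. The 11 lines with low Cdh1 all have Pdgfrb of 8.49 or more, and of the lines with high Cdh1 only MSCP5 (11.48) and MSCb1 (10.15) do.

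The lines were also arranged by Cdh1, which was above its array median in 15 lines (8.49 to 11.78) and below it in 11 (3.02 to 3.78). This status is itself a measured value, so ranges are given without a test. Pdgfrb was 8.49 to 11.52 in the 11 low lines. In the 15 high lines it reached 11.48 in MSCP5 and 10.15 in MSCb1 and no more than 5.76 elsewhere. Of 8 fibroblast markers, MSCP5 had 5 above the array median with a mean of 9.41, and MSCb1 had 4 with a mean of 6.34. The marker list did not follow Pdgfrb in every line. By count, B9rassmad, with Pdgfrb at 5.63, had 4 and A5, with Pdgfrb at 8.84, had 3, though their means of 6.46 and 6.66 ran in the order of Pdgfrb. By mean, D3, with Pdgfrb at 8.49, had 5.78, below B9rassmad. MSCP5 and MSCb1 also had all 8 epithelial markers above the array median. The part of these markers in the Pdgfrb values was not tested.

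Mst1r lay below the array median in all 11 low-Cdh1 lines and above it in 8 of the 15 high ones. Pdgfra had a median of 9.57 (5.85 to 13.04) in low lines and 5.81 (4.88 to 7.81) in high lines. Fgfr2 had 5.48 (5.16 to 7.39) in low lines and 8.28 (4.97 to 10.57) in high lines. Gas6 reached at most 7.85 in low lines and 11.16 in high lines. Axl had medians of 12.07 and 11.73, and its range in low lines (10.87 to 12.54) lay within that in high lines (9.60 to 12.60). Met had medians of 10.73 (7.93 to 11.35) in low lines and 11.45 (10.45 to 13.01) in high lines. Those of Fgfr1 were 8.93 (8.06 to 10.81) and 7.74 (6.0 to 9.61). For Fgfr3 they were 6.08 (5.71 to 6.42) and 6.69 (5.86 to 8.55). For Tyro3 they were 6.51 (6.12 to 6.76) and 6.73 (5.74 to 7.86). The ranges of low and high lines overlapped for each of these genes, Pdgfra, Fgfr2, Gas6 and Mst1r included. Those of Pdgfrb, described above, overlapped only through MSCP5 and MSCb1.

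Fgfr2 was high in keratinocyte lines and low in spindle lines. Its values were 10.23 in NK, 9.55 in C5N and 8.78 in P6. Every spindle line lay between 5.16 and 5.70, just above the array median. Non-spindle lines ran from 4.97 in B9rassmad to 8.92 in MSCP5, below both keratinocyte lines throughout. The spindle mean of 5.45 ± 0.19 (SD, n = 7) was 21.7-fold below the keratinocyte mean of 9.89 ± 0.48 (SD, n = 2; log2 difference -4.44 ± 0.90 SE, limma adjusted p = 0.00655). Without NK this call was lost, at an adjusted p of 0.100. The non-spindle mean of 6.89 ± 1.49 (SD, n = 12) had a log2 difference from keratinocyte lines of -3.00 ± 0.85, which, without overlap, did not pass (limma adjusted p = 0.0769), and between spindle and non-spindle lines the difference was -1.44 ± 0.53 (0.149).

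Within the non-spindle group, Fgfr2 was at 8.92 in MSCP5, 8.75 in MSCP1, 8.43 in PDV, 8.28 in B9ras, 7.60 in B9 and 7.39 in MSC12. It was 6.17 in MSC11B and between 4.97 and 5.73 in SN161, PDVC57, MSC7A, E4 and B9rassmad. Cdh1 was at 11.31 and 11.64 in SN161 and PDVC57, so low Fgfr2 was not limited to lines with low Cdh1. The third keratinocyte line had the highest Fgfr2 of all, 10.57. A second Fgfr2 probe set tracked the first (Pearson r = 0.99), with a spindle minus keratinocyte difference of -4.95.

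Fgfr3, known for restraining bone growth and often mutated in benign epidermal lesions, was lower in both carcinoma groups than in keratinocyte lines. C5N had 8.04, NK 6.92 and P6 8.55, the highest of all lines. Non-spindle lines ran from 5.97 to 7.09 and spindle lines from 5.71 to 6.42. The spindle mean of 6.08 ± 0.24 (SD, n = 7) was 2.64-fold below the keratinocyte mean of 7.48 ± 0.79 (SD, n = 2; log2 difference -1.40 ± 0.27 SE, limma adjusted p = 0.00548). The non-spindle mean of 6.46 ± 0.32 (SD, n = 12) was 2.03-fold below it (-1.02 ± 0.26, limma adjusted p = 0.0452), though MSCP1 at 7.09 exceeded NK. Without C5N the differences were -0.84 (adjusted p = 0.200) and -0.46 (0.754). The non-spindle call was also lost without any of SN161, B9ras, B9rassmad, MSC12, MSC11B, PDVC57, E4 or MSC7A. A second Fgfr3 probe set showed -0.56 and -0.60 for the same comparisons.

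Fgfr1, the receptor form typical of mesenchymal cells, differed little between groups relative to its spread. C5N had 8.74, and NK, with E4, had the lowest value of all lines. Non-spindle lines ran from 6.0 in E4 to 10.81 in MSC12 with a median of 8.32, and spindle lines from 8.06 to 10.35 with a median of 8.62. All groups overlapped. The limma differences were 0.65 ± 0.56 between spindle and non-spindle (adjusted p = 0.534), 0.95 ± 0.90 between non-spindle and keratinocyte (0.789) and 1.60 ± 0.95 between spindle and keratinocyte lines (0.357). Fgfr4, the remaining FGF receptor kinase, stayed between 5.45 and 6.07 in all 26 lines.

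Among the 12 non-spindle lines, the 6 from Spretus crosses were set against the other 6. None of the 10 genes passed, and no gene passed at all (0% of 12641; 10.9% had an unadjusted limma p under 0.05). Pdgfrb was high in 4 Spretus-cross lines (9.78 to 11.52) and low in MSCP1 (3.21) and SN161 (3.45), and the other 6 lines ran from 3.08 to 5.63. The difference was 4.69 ± 1.55 (limma adjusted p = 0.417), and the exact permutation test over 924 divisions gave an unadjusted p of 0.0325. The 3 lines with low Cdh1 are all in the Spretus-cross set, and without them the difference was 2.26 ± 1.66 (limma adjusted p = 0.988). Fibroblast markers in the same comparison had a median log2 difference of 3.56 and epithelial markers -2.57. Met (-1.12 ± 0.66, limma adjusted p = 0.536), Pdgfra (2.04 ± 1.06, 0.489) and Fgfr1 (1.05 ± 0.67, 0.566) did not pass. The remaining differences lay between -0.61 for Mst1r and 0.35 for Fgfr2. MSCP1, a Spretus-cross line, had an array profile close to PDV (Pearson r over genes 0.9868) and B9ras (0.9782) of the other set. Without MSCP1, 163 genes passed but none of the 10, and the Pdgfrb difference was 5.74 ± 1.33 (limma adjusted p = 0.0617).

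Ligands were taken from a list of 16 genes, of which 13 passed the filter. Pdgfa, which encodes a ligand of Pdgfra, was above the array median in all 26 lines. It ran from 6.68 to 9.29 in spindle lines and from 8.53 to 10.77 in non-spindle lines, with 9.97 and 10.17 in C5N and NK. CarB (6.68) and CarC (6.70), the lines highest in Pdgfra, were the lowest in Pdgfa. The difference between spindle and non-spindle lines was -1.24 ± 0.39 (limma adjusted p = 0.118).

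Pdgfc, another Pdgfra ligand, was high in all spindle lines (7.98 to 10.05) and ran from 4.31 in PDV to 10.88 in MSC7A in non-spindle lines. C5N had 4.84 and NK 6.36. The spindle lines exceeded both keratinocyte lines, with a log2 difference of 3.63 ± 1.45 (limma adjusted p = 0.155). Pdgfb, the ligand of both receptors, was 9.13 in C5N, 6.59 in NK and 4.21 to 6.10 in spindle lines. It was the only ligand called in any comparison, 6.98-fold lower in spindle than in keratinocyte lines (log2 difference -2.80 ± 0.81, limma adjusted p = 0.0468). The Pdgfb call was kept in 2 of 9 fits that each left out 1 line, and without C5N the log2 difference was -1.53 and the limma adjusted p 0.500. It was 0.105 with the conflicting lines placed by their cell type label. Pdgfd was above the array median in 2 lines, MSC7A (6.81) and B9ras (5.18).

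**Figure D5:**
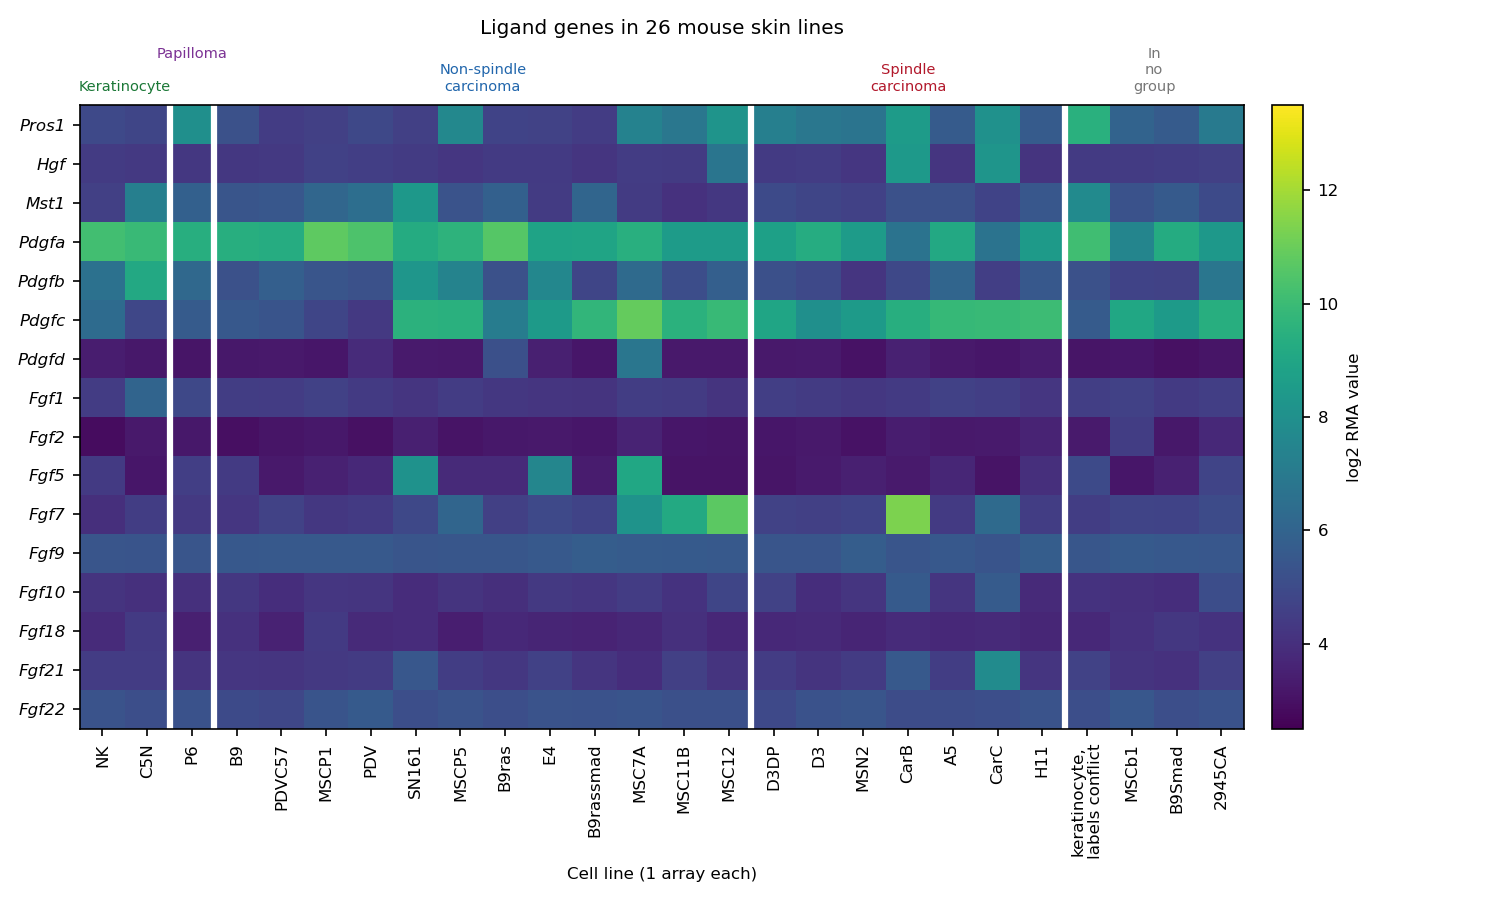
Heat map of log2 RMA values (colour scale) of 16 ligand genes (rows) in 26 lines (columns), in the same order of lines as the receptor genes. Pdgfa is above the array median in all 26 lines, Hgf in 3 and Fgf2 in 0.

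The FGF ligands were mostly near or below the array median. Fgf7, the keratinocyte growth factor that binds the epithelial form of Fgfr2, lay above the array median in 6 lines: CarB (11.32), MSC12 (10.73), MSC11B (9.18), MSC7A (8.15), CarC (6.31) and MSCP5 (6.07). All but MSCP5 had low Cdh1. Fgf5 was above it in SN161 (8.10), E4 (7.55) and MSC7A (9.05), and Fgf21 in CarC (7.79), CarB (5.58) and SN161 (5.48). Fgf10 exceeded it in CarC (5.67), CarB (5.60) and 2945CA (5.12). Fgf2 and Fgf18 were below the array median in all 26 lines, and Fgf1 exceeded it in C5N alone (6.04). Fgf9 (5.35 to 5.76) and Fgf22 (4.83 to 5.62) hardly varied. In counts, 0, 0 and 1 of the 13 tested ligands passed in the spindle to non-spindle, non-spindle to keratinocyte and spindle to keratinocyte comparisons, with medians of -0.05, 0.18 and 0.14. Of all tested genes 0.0633%, 2.02% and 5.35% passed, so 1 of 13 is near the background.

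Partners and adaptors of these receptors numbered 30, with 26 tested. Against keratinocyte lines, 1 rose and 1 fell in non-spindle lines, where 0.886% of all tested genes rose and 1.13% fell. In spindle lines 2 rose and 1 fell, where 2.40% of all tested genes rose and 2.95% fell. Gpc1, a heparan sulfate proteoglycan that helps FGFs bind, rose against keratinocyte lines in both non-spindle (2.33 ± 0.51, limma adjusted p = 0.0169) and spindle lines (2.99 ± 0.54, 0.00298). Gab1, the docking protein of Met, fell in both (-1.95 ± 0.38, limma adjusted p = 0.00811, and -1.93 ± 0.40, 0.00798). Both Gab1 calls were lost without C5N, and the Gpc1 call in non-spindle lines without C5N or NK. With the conflicting lines placed by their cell type label, the non-spindle differences were 1.45 for Gpc1 (limma adjusted p = 0.217) and -1.38 for Gab1 (0.0786). Nrp2, a coreceptor, rose in spindle lines (1.73 ± 0.50, limma adjusted p = 0.0469), but no fit that left out 1 line kept that call. No other partner passed, and none passed between spindle and non-spindle lines.

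Of 16 feedback and target genes of the pathway, all tested, 3 rose in both carcinoma groups against keratinocyte lines, where 0.886% of all tested genes rose in non-spindle and 2.40% in spindle lines. They were Lrig1, a membrane protein that lowers receptor levels (4.95-fold, limma adjusted p = 0.00628 in non-spindle and 5.56-fold, 0.00396 in spindle lines), Dusp4, a MAP kinase phosphatase (4.91-fold, 0.0161 and 4.44-fold, 0.0218), and Etv5, an ETS factor induced by FGF signalling (3.57-fold, 0.0491 and 3.89-fold, 0.0267). The standard errors of these log2 differences were 0.44 to 0.52. The list medians were 0.73 and 0.62. Without NK each of these calls was lost, and without C5N those of Dusp4 and Etv5. The Etv5 call in non-spindle lines was kept in 2 of 14 fits that each left out 1 line. Placing the conflicting lines by cell type label ended both Lrig1 calls (log2 differences of 1.22 and 1.34, limma adjusted p = 0.318 and 0.142) and the Etv5 call in non-spindle lines (1.53, 0.0588). With the spread of the groups compared alone, the non-spindle calls of Dusp4 (limma adjusted p = 0.0614), Gpc1 (0.0950) and Etv5 (0.0779) were lost too.

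Other receptor tyrosine kinases offered a comparison, with 32 of 41 tested. Ephb3, an ephrin receptor, was lower in non-spindle lines (-1.91 ± 0.38, limma adjusted p = 0.00982), the 1 call of that list there, which was lost without NK. Of all tested genes 1.13% were lower in that comparison, so 1 of 32 is near the background. In spindle lines 6 were lower and 1 higher than in keratinocyte lines, where 2.95% of all tested genes were lower and 2.40% higher. Ephb3 (-2.23 ± 0.40, limma adjusted p = 0.00298) and Erbb2, a relative of the EGF receptor (-1.80 ± 0.41, 0.0154), had the lowest adjusted p of the list and were chosen after their values were seen. Both calls were lost without NK (limma adjusted p = 0.0740 and 0.253). The largest differences were those of Erbb3 (-4.11 ± 1.15, limma adjusted p = 0.0421) and Epha1 (-3.22 ± 0.84, 0.0309), both epithelial receptors, and of the 1 higher gene, Ddr2, a collagen receptor of mesenchymal cells (2.86 ± 0.82, 0.0468). Erbb3 lost its call in each fit that left out 1 line, and Ddr2 kept it in 1 of 9. The Epha1 call was lost without C5N or NK. The list medians were -0.05 and -0.15.

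For each gene, the genes with the closest pattern over the 26 lines were listed by Pearson correlation, as a description. The points share groups, lines with related names and the epithelial state, so no p is given. Pdgfrb lay closest to Vasn (r = 0.96), Zeb1 (0.93) and Lix1l (0.93), and Pdgfra to Emilin2, Gypc and Medag (0.86 each). Fgfr2 lay closest to Ckmt1 (0.92), Rdh12 (0.92) and Spink5 (0.91), and Fgfr3 to Tfap2c (0.89), Zfp282 (0.88) and Ckmt1 (0.87). Mst1r lay closest to Has3 (0.91), Ivl (0.88) and Syt16 (0.88), and Met to Ptpre (0.88), Mboat1 (0.85) and Perp (0.84). For Axl the closest were Prkg2 (0.80), Gusb (0.76) and Rab31 (0.72), and for Tyro3 Aktip (0.74), Xrn2 (0.73) and Rab5if (0.73). For Gas6 they were Pltp (0.79), Arvcf (0.77) and Ptprz1 (0.77), and for Fgfr1 Casp12 (0.81), Akap2 (0.79) and Sh3bgrl (0.77). By ranks (Spearman) some pairs were less alike, such as Mst1r with Has3 (0.58) and Axl with Prkg2 (0.60) and Gusb (0.57). Others were not, such as Gas6 with Arvcf (0.79) and Fgfr1 with Sh3bgrl (0.82).

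Within the set, Fgfr2 and Fgfr3 had the highest correlation (r = 0.80), followed by Pdgfrb with Fgfr1 (0.66) and Fgfr3 with Mst1r (0.62). Pdgfra with Pdgfrb and Fgfr2 with Mst1r had 0.59 each. Met ran against Pdgfrb (-0.67) and Fgfr1 (-0.66). These correlations cover 26 lines that include all groups.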

How the data were processed

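Total RNA of 26 lines was hybridised to Affymetrix mouse arrays, 1 array per line. The authors deposited log2 values normalised by RMA, per the submitters' processing notes (no source used here names the software or its version). Of 45037 probe sets, 34945 carry 1 gene symbol in the platform annotation, 932 several and 9160 none, and 34741 matched a gene ID of GRCm38.p6. The highest-mean probe set stood for each of 18193 genes, and genes above the array median on at least 2 arrays (12641) were tested. Groups came from the cell type label, the keratinocyte, spindle and papilloma flags and the titles.

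The 3 groups (21 lines) were fitted in 1 model with limma 3.58.1 in R 4.3.3 (lmFit, eBayes; Benjamini-Hochberg over all tested genes, threshold 0.05), and the Spretus-cross comparison within the non-spindle lines. Single genes were also compared by exact permutation, 2-sided. The fit was tested on simulated data. All 10 genes are described, every listed ligand, up to 3 called genes per other list and comparison, and the 3 most correlated genes of each. The members and lists were chosen with earlier results of these data known. The number of arrays limits the precision. The papilloma line and the 4 lines with missing or conflicting labels entered no fit. The name of the third keratinocyte line is not reported here. Alternatives changed the probe set rule, filter, spread, conflicting lines, name family as a block, centring and prior, and left out MSC12, MSC11B and MSC7A or each line in turn.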

Additional observations from a re-analysis of the deposited data

Results flagged for a closer look

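Mst1r in B9 stood at 8.47, apart from the other 5 non-spindle lines that came from no Spretus cross, of which PDVC57 was next at 5.87. The gap was 0.72 of the range of these 6 lines, above the critical value of 0.625. This was the 1 value so marked among 30 groups of lines examined, and chance marks about 1 in 20 groups.

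Some lines outside the comparisons exceeded all 21 compared lines. Gas6 was 11.16 in MSCb1, whose spindle state is not given, and 10.56 in the third keratinocyte line, against at most 10.14 in PDV. Fgfr2 was 10.57 in the third keratinocyte line, against 10.23 in NK. Fgfr3 was 8.55 in the papilloma line P6, against 8.04 in C5N. Each of these is 1 array, with no replicate.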

How the results depend on the processing

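The precision is limited by 1 array per line and by 2 keratinocyte lines. The count of the 10 genes called between non-spindle and keratinocyte lines was 2, where 2.02% of all tested genes were called. It was 1 (Axl) with the spread of those 2 groups alone (0.878% of all tested genes) and with the name family of the line as a random block (1.71%). It was also 1 (Axl) without MSC12, MSC11B and MSC7A (1.90%). It ranged from 1 to 3 over fits that left out 1 line, the 3 without MSCP5. Between spindle and keratinocyte lines the count was 4, where 5.35% of all tested genes were called. With the conflicting lines placed by their cell type label the count was 2 (6.37% of all tested genes). It was 3 (without Tyro3) with no filter (3.21% of 18193 genes) or with the name family block (4.47%). It was 5 (with Pdgfrb) without those MSC lines (7.51%) or with the spread of the groups compared alone (9.60%), where the share of all genes rose too. It ranged from 1 (without NK) to 4 over fits that left out 1 line, and was 2 without C5N. Between spindle and non-spindle lines it was 1 instead of 0 without MSC12, MSC11B and MSC7A, and 0 to 0 when 1 line was left out; by Spretus cross it was 0 throughout.

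No called difference of the 10 genes reversed under these alternatives; the reversals were of differences that were not called. Mst1r between non-spindle and keratinocyte lines was -0.53 with the conflicting lines placed. By Spretus cross, Axl was 0.01 and Fgfr3 0 (rounded) with the mean of all probe sets, and Gas6 was 0.64 and Tyro3 0.35 without MSC12, MSC11B and MSC7A. Leaving out 1 line gave ranges that crossed 0 for Axl (-0.20 to 0.08) between spindle and non-spindle lines, for Fgfr1 (-0.42 to 2.32) and Mst1r (-0.15 to 0.61) between non-spindle and keratinocyte lines, and by Spretus cross for Axl (-0.17 to 0.10), Fgfr2 (-0.02 to 0.70), Fgfr3 (-0.09 to 0.13), Gas6 (-1.15 to 0.06) and Tyro3 (-0.17 to 0.09). The cause was not tested. Over all genes, 8 were called between spindle and non-spindle lines, against 5 with mean probe sets, 3 with no filter, 2 with the block, 0 with conflicting lines placed and 1954 without the 3 MSC lines, and 2 to 471 when 1 line was left out (471 without MSC11B). Between non-spindle and keratinocyte lines 255 were called, against 111 with the spread of those groups alone and 163 with conflicting lines placed, and between spindle and keratinocyte lines 676, against 1213 with the spread of those groups alone. With 1 line left out, these counts were 147 (without C5N) to 352 (without MSCP5) and 258 (without C5N) to 574, and by Spretus cross 0 to 163 (without MSCP1).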

Other observations

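Of the lines in no comparison, 2945CA, whose spindle state is not given, had Pdgfrb at 10.63, Pdgfra at 11.14, Fgfr2 at 5.62 and Cdh1 at 3.40, values within the ranges of the spindle lines. MSCb1 had Cdh1 at 10.02, Pdgfrb at 10.15, Gas6 at 11.16 and Fgfr2 at 5.91. B9Smad, labelled as spindle by cell type and as non-spindle by its flag, had Cdh1 at 8.49, Pdgfrb at 5.76, Gas6 at 9.28 and Fgfr2 at 6.48. Over all genes its array was closest to B9ras (Pearson r 0.9672), then PDV (0.9639), MSCP1 (0.9526) and B9rassmad (0.9486). These values are from 1 array each and carry no test.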
